A study of Eulimnogammarus verrucosus and Eulimnogammarus cyaneus and Gammarus lacustris with 24 samples.

Results

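Vitellogenin (Vg) is the precursor of yolk protein, and the microsomal triglyceride transfer protein (MTTP) is its relative in the family of large lipid transfer proteins. In crustaceans Vg is made by reproducing females and is taken up by growing oocytes. MTTP acts in the endoplasmic reticulum, where it loads lipid onto newly made lipoproteins of this family, Vg included. The family also holds the circulating lipid carriers apolipoprotein B of vertebrates and apolipophorin of insects, and yolk and lipoprotein receptors such as VLDLR and Drosophila yl bind its secreted members. Names in these data rest on sequence similarity, and clotting proteins and circulating lipid carriers of crustaceans resemble Vg in sequence.

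The members were chosen by name: every entry of the authors' 3 deposited tables (1 per species) whose gene symbol was Vg, VTG, vit-1 to vit-6, APOB, Apolpp, Rfabg, MTTP, Mtp, VLDLR or yl. Of 12688 entries, 5 matched: Vg in Eulimnogammarus verrucosus, Eulimnogammarus cyaneus and Gammarus lacustris, and MTTP in E. verrucosus and G. lacustris. No MTTP was listed for E. cyaneus, and no entry for APOB, apolipophorin, VLDLR or yl was listed for any of the 3 species. Behind the 5 entries stood 13 of the 159621 transcripts quantified. The group was picked with the temperature contrast of these data already known, so its members' differences between temperatures are given below as a description, without a test. The spread between pools and the level of each member were not used to pick it.

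The 24 libraries came from whole bodies of adults, pooled before RNA extraction: 3 animals a pool for E. verrucosus, about 13 for E. cyaneus and about 11 for G. lacustris. Both Eulimnogammarus species live only in Lake Baikal, and G. lacustris is widespread in northern lakes. All animals first spent 14 days at 6 °C. They were then brought over about 6 days either down to 1.5 °C or up to 12 °C and kept there for 1 month, with 4 pools per species and temperature. No pool kept at 6 °C was analysed here, so a difference between 1.5 °C and 12 °C has no direction relative to the starting state. The labels do not give the sex or reproductive stage of the animals, and in a pool of whole bodies more vitellogenic females and more Vg RNA per female cannot be told apart. Nothing in the labels says whether pools of 1 group came from separate tanks.

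Each library held between 8501852 and 15417719 estimated read counts. Levels below are CPM, counts per 1000000 counts of a library size scaled by the trimmed mean of M-values (TMM). Where given as TPM, they are the deposited measure, which also divides by transcript length. The 12 °C pool 1 of E. cyaneus stood apart, with 25.5% of its counts in 10 transcripts, against 11.4% to 17.8% in the other 7 E. cyaneus pools. In E. verrucosus the 12 °C pools 1 and 3, the 2 with the lowest summed Vg at that temperature, had 20.6% and 23.4% of their counts in 10 transcripts, against 14.7% to 16.1% in the other 6, and the part of this in the Vg values was not tested. In G. lacustris, scaling itself moved all transcripts: the authors' own size factors shifted the median log2 fold change by 0.65 relative to TMM, and this touches each G. lacustris fold change given here. The corresponding shift was -0.11 in E. cyaneus and -0.03 in E. verrucosus.

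Vg of E. verrucosus was among the most abundant transcripts in the animals at both temperatures and did not separate them. The 7 transcripts behind the name summed to 24713, 15173, 31240.3 and 13432 CPM in the pools at 1.5 °C, against 17342, 22455, 17385 and 23991 CPM in the pools at 12 °C. The 1.5 °C pools held both the highest and the lowest of the 8 values, with the 12 °C pools in between. Their means were 21139 ± 8363 CPM at 1.5 °C and 20293 ± 3441 CPM at 12 °C (SD, n = 4 each). The log2 fold change of the summed counts, 1.5 °C over 12 °C, was 0.06 with an SE of 0.40, and the authors' deposited table gave 0.01 with an SE of 0.27. For the main transcript alone the value changed sign with the library left out, between -0.21 and 0.20.

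As a share of all counts, Vg took 1.06% to 3.68% of an E. verrucosus library at 1.5 °C and 1.257% to 2.88% at 12 °C. Ranked by TPM with its transcripts summed, it stood at place 11 to 127 among all transcripts of the pools at 1.5 °C and at place 21 to 85 in those at 12 °C. The highest 1.5 °C pool was 2.33 times the lowest, and the highest 12 °C pool was 1.38 times the lowest.

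E. cyaneus showed the one wide separation. Its single Vg transcript, 6572 bases long, stood at 1720.3, 1192, 1796 and 953 CPM in the pools at 1.5 °C, against 424, 201, 105 and 192 CPM in the pools at 12 °C. The groups did not overlap: the lowest 1.5 °C pool was 2.25 times the highest 12 °C pool. For comparison, 5.86% of the 20678 transcripts tested in this species had all 1.5 °C pools above all 12 °C pools. The means were 1415 ± 409 CPM at 1.5 °C and 231 ± 136 CPM at 12 °C (SD, n = 4 each).

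The log2 fold change of E. cyaneus Vg was 2.62 with an SE of 0.40, and 2.47 with an SE of 0.41 in the authors' deposited table. With each library left out in turn, it ran between 2.37 and 3.07. The highest of these was the value without the 12 °C pool 1, the pool that stood apart and that also held the most Vg of its group. In rank by TPM, Vg held place 574 to 971 in the pools at 1.5 °C and place 2555 to 5888 in those at 12 °C.

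In G. lacustris the summed Vg level was 1021, 1096, 1467 and 1186 CPM in the pools at 1.5 °C, against 533, 1362, 1718 and 1248 CPM in the pools at 12 °C. The groups overlapped, and the 12 °C pools held both the highest and the lowest value. The means were 1193 ± 195 CPM at 1.5 °C and 1215 ± 497 CPM at 12 °C (SD, n = 4 each). The log2 fold change of the summed counts was -0.03 with an SE of 0.32.

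The G. lacustris value lay near 0 and changed sign between settings. For the transcript that carries most of the Vg counts the log2 fold change was -0.08 with TMM, -0.02 with DESeq2's size factors and 0.52 with the authors' size factors. It was 0.08 without a filter on low counts, 0.03 with the replicate number as a block and -0.32 to 0.16 with a library left out. The authors' deposited table gave 0.59 with an SE of 0.35 for the entry as a whole. The median over all transcripts tested stood at 0.11 with TMM and at 0.75 with the authors' size factors, so relative to its own median Vg lay below the middle of the transcriptome in both. Over the names of the authors' deposited table the median was -0.41, and Vg lay above it.

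**Figure D1:**
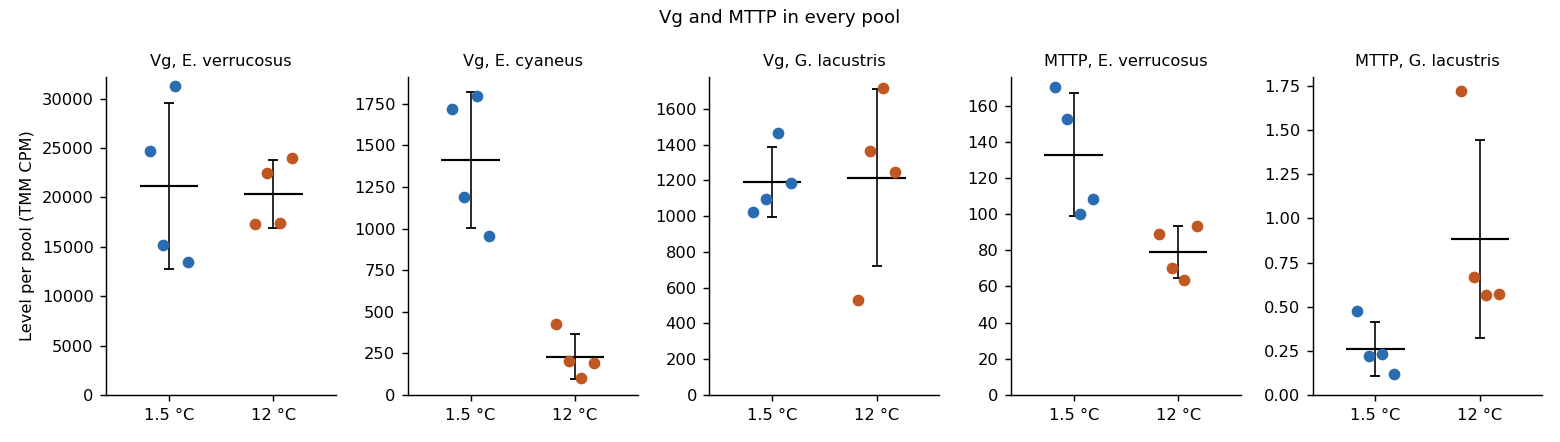
Level of Vg (transcripts of a name summed) and MTTP in every pool, in TMM-scaled CPM, with 1.5 °C left and 12 °C right in each panel. Points are pools (n = 4 per group), horizontal lines are means and error bars are SD. In CPM E. cyaneus Vg and E. verrucosus MTTP separate the temperatures without overlap, and Vg of E. verrucosus and G. lacustris overlaps. On the deposited TPM the pools of E. verrucosus MTTP overlap. G. lacustris MTTP, on 1 to 13 counts per library, is apart in CPM and TPM but not in counts. Its highest 1.5 °C and its lowest 12 °C pool both hold 5 counts.

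**Figure D2:**
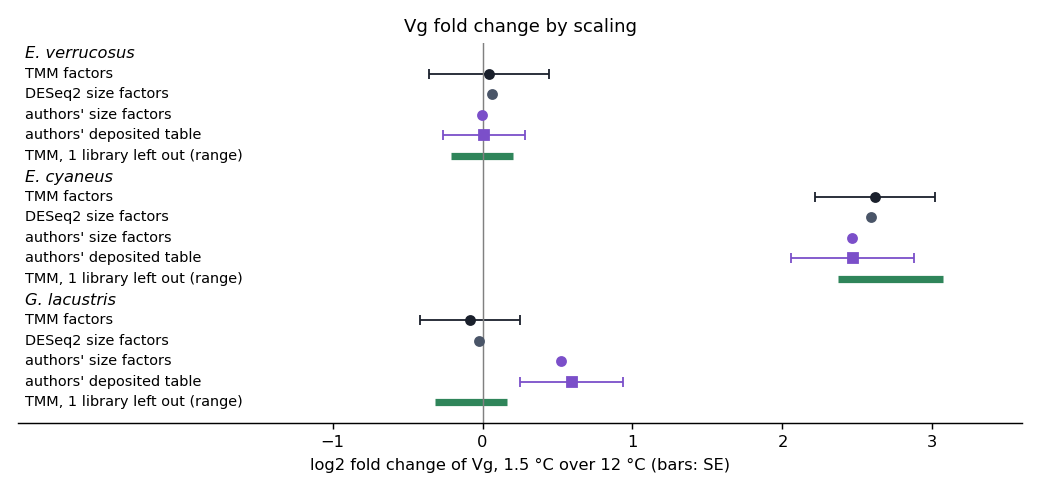
Log2 fold change of the main Vg transcript of each species, 1.5 °C over 12 °C, under 3 scalings, beside the authors' deposited value for the entry (square). Error bars are SE and green bars span the values with 1 library left out. The E. verrucosus values lie on both sides of 0, those of E. cyaneus between 2.37 and 3.07 with a library left out, and those of G. lacustris between -0.32 with a library left out and 0.59 in the deposited table.

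Put in order by TPM, the summed Vg levels formed 3 tiers. E. verrucosus came first, with 3224 ± 1806 TPM at 1.5 °C and 2574 ± 1057 TPM at 12 °C (SD, n = 4 each). The pools of these 2 groups overlapped. Next came E. cyaneus at 1.5 °C with 210 ± 63.3 TPM, G. lacustris at 1.5 °C with 169 ± 29.7 TPM and G. lacustris at 12 °C with 173 ± 74.6 TPM, 3 groups whose pools overlapped. E. cyaneus at 12 °C came last, with 27.1 ± 10.1 TPM, and its highest pool, 38.6 TPM, lay under the lowest pool of the other groups, 68.1 TPM in G. lacustris at 12 °C. Each species was measured on its own assembly, so its TPM values are shares of a different set of transcripts.

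Several transcripts carried the name Vg in 2 of the species, and 1 of them held most of the counts. In E. verrucosus the 7291-base transcript TRINITY_DN3055_c0_g1_i31 held 95.7% of the counts of the name over the 8 pools. The transcripts of 8610, 8340, 8020 and 1661 bases belonged to the same assembled gene, and 2, of 6068 and 4759 bases, were assembled apart from it. In G. lacustris the 5252-base transcript TRINITY_DN230_c0_g1_i3 held 95.4%, and 2 transcripts of 5571 and 1963 bases were each assembled as a gene of their own. E. cyaneus had TRINITY_DN371_c0_g1_i17 alone.

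The main E. verrucosus transcript ranged from 12831 to 29803 CPM in the pools at 1.5 °C and from 16706 to 23145 CPM in those at 12 °C. Its log2 fold change was 0.04 (SE 0.40). Among the minor transcripts, 3 had values of 0.87 (SE 0.38, 8610 bases), 1.11 (SE 0.50, 8020 bases) and 1.25 (SE 0.55, 4759 bases). The 6068-base transcript was at 0.59 (SE 0.42), the 8340-base transcript at -0.08 (SE 0.65) and the 1661-base transcript at -1.17 (SE 0.49). In all 6 the pools of both temperatures overlapped.

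The best supported of the transcripts assembled apart, that of 6068 bases, stood at 660.3, 327, 485 and 171 CPM in the pools at 1.5 °C, against 203, 244, 298 and 346 CPM in the pools at 12 °C. Like the main transcript, it had its highest and its lowest pool at 1.5 °C. Reads shared between near-identical transcripts of 1 assembled gene are divided by the quantifier, so single values of the 5 transcripts from the main gene are uncertain. A sixth transcript of that gene, 1640 bases long and without the name, held 15.8% of the gene's counts. It ranged from 2451 to 5318 CPM at 1.5 °C and from 1710.0 to 6487 CPM at 12 °C, with a log2 fold change of 0.23 (SE 0.48).

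The 2 minor transcripts of G. lacustris were far scarcer than the main one. The 5571-base transcript stood at 37.96, 135, 55.4 and 29.99 CPM in the pools at 1.5 °C, against 35.98, 23.95, 46.6 and 6.01 CPM in the pools at 12 °C. Its groups overlapped, and its log2 fold change was 1.198 with an SE of 0.60. The 1963-base transcript ranged from 9.87 to 24.1 CPM at 1.5 °C and from 4.58 to 11.0 CPM at 12 °C, with a log2 fold change of 0.90 and an SE of 0.40. Across the 8 pools their log2 CPM correlated with that of the main transcript at r = -0.13 and r = -0.16, while the 6 minor transcripts of E. verrucosus correlated with theirs at r between 0.46 and 0.71. These correlations are descriptions over 8 pools that share libraries, and 4 of the E. verrucosus transcripts share an assembled gene with the main one.

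**Figure D3:**
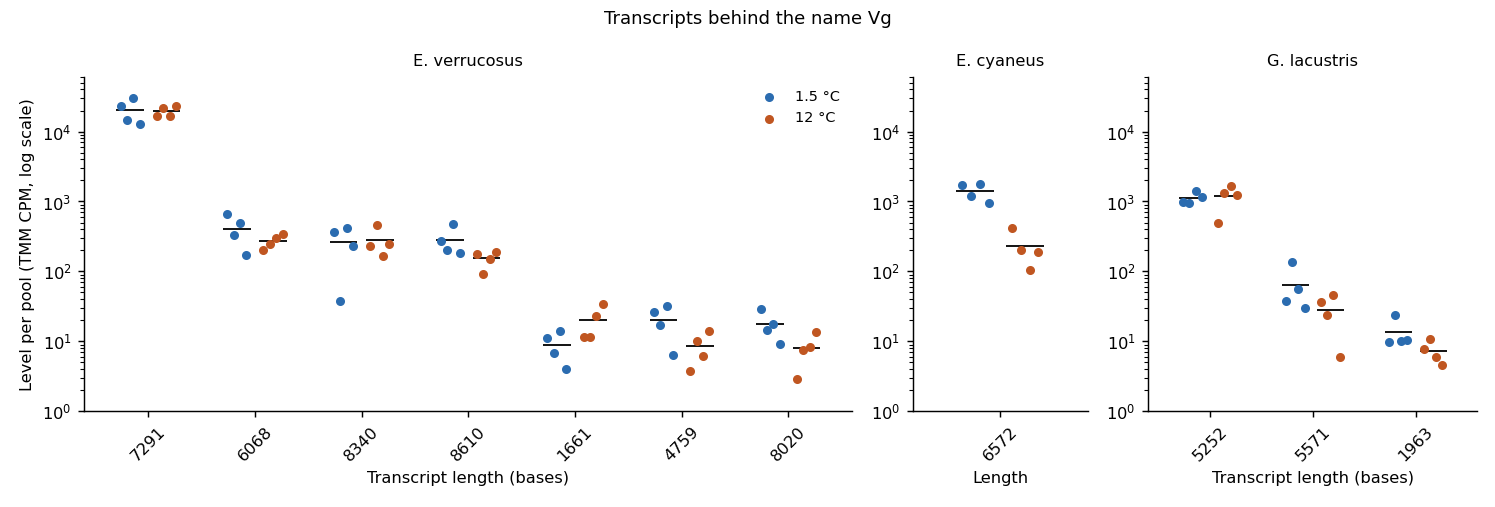
Every transcript behind the name Vg, by length in bases, in TMM-scaled CPM on a log scale. Points are pools (n = 4 per group), blue for 1.5 °C and orange for 12 °C, and lines are means. In E. verrucosus and G. lacustris 1 transcript, of 7291 and of 5252 bases, lies above the others in every pool.

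MTTP, the lipid loader, was much scarcer than Vg. In E. verrucosus its 3919-base transcript stood at 170.4, 153, 100.2 and 109 CPM in the pools at 1.5 °C, against 88.8, 70.0, 63.5 and 93.6 CPM in the pools at 12 °C. In CPM all 1.5 °C pools lay above all 12 °C pools, the lowest of them at 1.07 times the highest 12 °C pool. That pattern was shared by 4.42% of the 24119 transcripts tested. On the deposited TPM the groups overlapped, with 20.2 TPM in the 1.5 °C pool 4 and 29.6 TPM in the 12 °C pool 4. The log2 fold change was 0.75 with an SE of 0.27, between 0.61 and 0.87 with a library left out, and the authors' deposited table gave 0.72 with an SE of 0.26. Per length, on the TPM scale, the summed Vg level was 52.5 to 164 times that of MTTP in the pools at 1.5 °C and 103 to 170 times that of MTTP in those at 12 °C.

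In G. lacustris the only MTTP entry was a 472-base transcript at the limit of detection. Its estimated counts were 5, 2, 2 and 1 in the pools at 1.5 °C, against 13, 6, 5 and 6 in the pools at 12 °C. Both the means of 0.261 CPM at 1.5 °C and 0.881 CPM at 12 °C fell under the filter on low counts, so no fold change was fitted. The authors' deposited table gave -1.01 with an SE of 0.82. In CPM all 1.5 °C pools were below all 12 °C pools, as were those of 29.7% of the 27194 transcripts tested in this species. The highest 1.5 °C pool and the lowest 12 °C pool both held 5 counts, so their order rests on the scaling.

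The spread of Vg between pools was set beside that of all transcripts tested in its species, which were not matched to Vg in level. In E. verrucosus the SD of log2 CPM within a temperature, pooled over both, was 0.44 for the main transcript, higher than in 29.4% of the transcripts tested. The value was 0.66 in E. cyaneus (higher than in 74.7%) and 0.58 in G. lacustris (higher than in 55.9%). Some minor transcripts spread more, such as those of 8340 bases in E. verrucosus (higher than in 84.3%) and 5571 bases in G. lacustris (higher than in 92.5%). E. verrucosus MTTP was steadier, with 0.32 (higher than in 14.0%). The fitted dispersion of the main transcript was higher than in 76.2% of transcripts in E. cyaneus, 45.03% in G. lacustris and 59.0% in E. verrucosus. On the deposited TPM the pooled SD of the main transcript was higher than in 52.0% of transcripts in E. verrucosus. The corresponding share was 51.4% in E. cyaneus and 62.8% in G. lacustris, so the order of the species depended on the scale.

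Spread was unequal between the temperatures, and not the same way in each species. In E. verrucosus the SD of log2 CPM of the main transcript was 0.57 at 1.5 °C and 0.25 at 12 °C. In E. cyaneus it was 0.44 at 1.5 °C and 0.83 at 12 °C, and in G. lacustris 0.26 at 1.5 °C and 0.78 at 12 °C. With 4 pools a group these differences were not tested. In E. verrucosus the deposited TPM gave a pooled SD of 0.76 in place of 0.44. In those pools the TMM-scaled library size was 0.725 to 1.33 times the unscaled one, and its part in this was not tested.

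The genes whose log2 CPM ran most like Vg over the 8 pools were different in each species. Among 1074 E. verrucosus transcripts with a name, PPP2R4, an activator of protein phosphatase 2A, came closest at r = 0.95, ahead of ZNF277, SNRNP35, PTPMT1 and TPR, a nuclear pore protein, at r down to 0.89. The most opposed were ZMAT2 at r = -0.91, MRPL32, a mitochondrial ribosomal protein, at -0.90, and RBM42 at -0.87. Computed on deviations from the temperature means, r was 0.96 for PPP2R4 and 0.94 for ZNF277, and -0.91 for ZMAT2.

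In E. cyaneus, among 1107 transcripts, SLC7A6, an amino acid transporter, led with r = 0.94. It was followed by OSBPL1A, an oxysterol-binding protein of the lipid transport list, at r = 0.93, and by RSAD1, RPL37 and CHIC1 at r down to 0.91. Computed on deviations from the temperature means, r was 0.93 for OSBPL1A, 0.83 for RPL37, 0.73 for SLC7A6, 0.55 for CHIC1 and 0.38 for RSAD1. OSBPL1A reached 4.96 to 6.77 CPM in the pools at 1.5 °C and 3.04 to 5.29 CPM in those at 12 °C. PIGX at r = -0.96, GABRB2 at -0.96 and SELENOH at -0.95 were the most opposed, with -0.74 for PIGX and -0.69 for each of the other two on the deviations.

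Among 1503 G. lacustris transcripts the 5 most alike were SLC11A2, a metal ion transporter, at r = 0.97, MACROD2, GABRB2, CYP303A1 and TBC1D23, at r down to 0.91. CD109 at r = -0.90, APOPT1 at -0.85 and SGCB at -0.83 were the most opposed. All these values were picked as the extremes of a long list of correlations on 8 pools, and are descriptions. An r above 0.9 was reached by 0.279% of the named transcripts of E. verrucosus, by 0.452% of those of E. cyaneus and by 0.466% of those of G. lacustris. The 5 most alike in G. lacustris all had their lowest level in the 12 °C pool 1, as Vg did. CD109, APOPT1 and SGCB had their highest level there. That pool correlated with the other 12 °C pools at r of 0.79 to 0.84, against 0.90 among those. How far the G. lacustris values rest on that pool was not tested.

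Genes around Vg were taken from 6 lists: lipoprotein and lipid transport, germ line and oocyte, male and sperm, hormonal control of vitellogenesis, muscle, and digestive and fat-storing tissue. Each list transcript was tested with edgeR's quasi-likelihood test at a Benjamini-Hochberg adjusted p of 0.05, members left out. In E. verrucosus 1 of 19 passed, where 3.34% of all transcripts did and 1.32% were higher at 1.5 °C. For E. cyaneus the count was 0 of 20, where 0.629% of all transcripts passed. G. lacustris had 22 of 32, all lower, where 39.8% of all transcripts passed, 9.7% higher and 30.1% lower at 1.5 °C. Of all G. lacustris calls, 24.4% were higher at 1.5 °C with TMM and 57.2% with the authors' size factors. At an unadjusted p under 0.05, 3 of the 20 E. cyaneus transcripts passed, beside 2936 of all 20678, and DESeq2 called 2 of those it could adjust, beside 917 over all transcripts. In the authors' deposited tables, of 54 list names of E. verrucosus 4 passed, where 4.69% of all names with an adjusted p did. The E. cyaneus count there was 5 of 74, where 6.27% of all names passed, and that of G. lacustris 60 of 100, where 58.9% passed, 25.1% higher and 33.8% lower.

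The lipid transport list had few transcripts to test. In E. verrucosus 0 of 3 passed, where 3.34% of all transcripts did, and in E. cyaneus 0 of 4, where 0.629% did, with median log2 fold changes of 0.46 and 0.32, against -0.03 and 0.01 over all transcripts of these species. The 3 tested in E. verrucosus were 2 named Apod, a lipocalin carrier of small lipids, and lrp2, a large endocytic receptor of the LDL receptor family. That receptor averaged 14.8 ± 10.4 CPM at 1.5 °C and 28.01 ± 13.5 CPM at 12 °C (SD, n = 4 each). In E. cyaneus the most abundant of the 4 tested were APOD, OSBPL1A and OSBPL8.

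In G. lacustris OSBP, a carrier of sterols between membranes, was lower at 1.5 °C than at 12 °C: it averaged 1.52 ± 0.35 CPM at 1.5 °C and 10.6 ± 6.57 CPM at 12 °C (SD, n = 4 each), with a log2 fold change of -2.77 (SE 0.46, edgeR adjusted p = 0.00094). The other lipid transport transcripts tested there, CRABP2 and 2 of SEC23A, did not pass. The authors' deposited table also listed NPC1, a lysosomal cholesterol exporter, at -2.49 with NPC2, its partner, at 1.02, APOD at 0.78 and SEC23A, a coat protein of vesicles leaving the endoplasmic reticulum, at 1.18, all past its adjusted p of 0.05.

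Of the germ line list, 0 of 4 transcripts in E. verrucosus and 0 of 7 in E. cyaneus passed with edgeR, and at an unadjusted p under 0.05 there were 0 and 1. DESeq2 called 1 in E. verrucosus. The authors' deposited table called aub, a Piwi protein of the Drosophila germ line, at 5.13 in E. verrucosus on a mean of 3.56 normalised counts. The summed level of the paired list transcripts was 59.2 to 108 CPM at 1.5 °C and 74.9 to 93.3 CPM at 12 °C in E. verrucosus. It was 56.0 to 72.8 CPM at 1.5 °C and 45.1 to 87.6 CPM at 12 °C in E. cyaneus, where Vg separated the temperatures and this sum did not. The most abundant list transcripts among those paired and tested were CPEB1 and PLK1 in E. verrucosus and MAEL, YBX2 and BicD in E. cyaneus.

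In G. lacustris piwil1, another Piwi protein, was lower at 1.5 °C than at 12 °C, with 2.97 ± 1.29 CPM at 1.5 °C and 24.9 ± 15.8 CPM at 12 °C (SD, n = 4 each) and a log2 fold change of -3.06 (SE 0.47, edgeR adjusted p = 0.00075). CycB3, a B-type cyclin, and DDX4, the Vasa helicase of germ cells, did not pass with TMM, at log2 fold changes of 0.57 and 0.44. Among 17 germ line names in the authors' deposited table, CycB3, PIWIL2, TDRD7 and TDRD9 were higher at 1.5 °C, and CPEB1, MAEL, piwil1, PLK1 and tud were lower. Of all names in that table, 25.1% were higher and 33.8% lower.

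In G. lacustris transcripts of the male and sperm list were lower at 1.5 °C than at 12 °C, while Vg did not separate the temperatures. This list consists largely of parts of the ciliary axoneme. Its name does not show that the transcripts came from sperm or males of these animals, and their source was not tested. With edgeR 13 of its 14 transcripts were lower at 1.5 °C than at 12 °C and none were higher, against 30.1% of all transcripts lower at 1.5 °C, and the median log2 fold change was -3.16, against 0.11 over all transcripts tested. With the authors' size factors 13 were again lower, and the median was -2.46, against 0.75 over all. The authors' deposited table held 33 names of the list, of which 28 were lower and none higher, where 33.8% of all its names were lower.

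RSPH4A, a radial spoke protein, averaged 3.62 ± 0.35 CPM at 1.5 °C and 28.4 ± 8.86 CPM at 12 °C (SD, n = 4 each; log2 fold change -2.97, SE 0.28, edgeR adjusted p = 0.00021). Further calls were CFAP20 (2 transcripts of 1 assembled gene), dnah7, DNALI1, LRRC23, MNS1, RSPH9, SPAG16, SPAG17, SPATA4 and SPATA6, with log2 fold changes from -4.69 to -2.58. The summed list gave 15.9 to 22.9 CPM in the pools at 1.5 °C and 118 to 255 CPM in those at 12 °C, without overlap. Of the 27194 transcripts tested in this species, 29.7% had all 1.5 °C pools below all 12 °C pools.

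This list was near its floor in the other species. It had 4 paired transcripts in E. verrucosus and 16 in E. cyaneus, against 25 in G. lacustris. Its sum was 1.44 to 2.14 CPM at 1.5 °C and 0.11 to 1.44 CPM at 12 °C in E. verrucosus, and 1.46 to 3.14 CPM at 1.5 °C and 1.59 to 4.29 CPM at 12 °C in E. cyaneus, where none of its 16 paired transcripts passed the filter. The one E. verrucosus call was CFAP20, with 1.17 to 1.99 CPM in the pools at 1.5 °C and 0 to 0.0876 CPM in those at 12 °C, and an edgeR adjusted p of 0.0028.

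Of the regulators of vitellogenesis, moulting and growth, 0 of 5 transcripts passed in E. verrucosus and 0 of 3 in E. cyaneus with edgeR (1 and 0 at an unadjusted p under 0.05, and 1 in E. verrucosus with DESeq2). Among the transcripts tested, the 3 highest were EPHX1, jhamt, which makes juvenile hormone in insects and methyl farnesoate in crustaceans, and Cyp18a1, which breaks down ecdysteroids in Drosophila, in E. verrucosus. In E. cyaneus they were jhamt, Cyp18a1 and NCOA2, again among transcripts paired with a name. MTOR and Phm were not paired there. Their mean normalised counts in the authors' deposited table were 485 and 174, against 398 for jhamt and 107 for NCOA2. The enzyme jhamt averaged 23.96 ± 10.54 CPM at 1.5 °C and 44.2 ± 16.1 CPM at 12 °C in E. cyaneus (SD, n = 4 each; log2 fold change -0.88, SE 0.41, edgeR adjusted p = 0.37). The authors' deposited table called EPHX1 in E. verrucosus, at -0.57.

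In G. lacustris 4 of 6 of these transcripts were lower at 1.5 °C than at 12 °C and none higher with TMM, where 30.1% of all transcripts were lower, and with the authors' size factors 4 were lower and 2 higher. The TMM calls included transcripts named ftz-f1 and NR5A2, names of nuclear receptors, which belong to 1 assembled gene, so that reads were divided between them by the quantifier and the split is uncertain. They were at log2 fold changes of -1.59 (SE 0.39, edgeR adjusted p = 0.0071) and -1.73 (SE 0.39, adjusted p = 0.0046), and the other calls were mtor, the growth kinase, at -3.08 (SE 0.43, edgeR adjusted p = 0.00050), and Phm, at -3.18 (SE 0.91, adjusted p = 0.015). Among 14 names in the authors' deposited table Cyp18a1, Hr4, jhamt and RXRA were higher, and 6 names were lower. Of all names in that table, 25.1% were higher and 33.8% lower.

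Summed markers of other body parts stood beside Vg as follows. In E. cyaneus the summed muscle list was 1804 to 2891 CPM at 1.5 °C and 3366 to 11778 CPM at 12 °C, opposite to Vg. Nearly all of that sum was 1 transcript of Unc-89, of 17330 bases, and the pools of the other 2 tested overlapped. No muscle transcript of 3 passed with edgeR, with Unc-89, a giant sarcomere protein, at -1.33 (SE 0.41, adjusted p = 0.19), while the authors' deposited table called Mlc2, sls, TNNI1 and Unc-89 lower among 8 names, where 4.03% of all its names were lower. The summed digestive list was 562 to 1267 CPM at 1.5 °C and 276 to 464 CPM at 12 °C in E. cyaneus, in the direction of Vg, with SAA1 at 1.68 (SE 0.41, edgeR adjusted p = 0.11). Most of that sum at 1.5 °C was SAA1, which averaged 591 ± 321 CPM at 1.5 °C and 184.6 ± 80.8 CPM at 12 °C (SD, n = 4 each), while 2 transcripts of PNLIP, a pancreatic lipase, were at -0.11 and -0.27. The authors' deposited table called SAA1 higher, at 1.57. It was the 1 call among 8 digestive names, where 6.27% of all names passed. The part of muscle and digestive tissue in the Vg difference was not tested.

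In E. verrucosus the lowest Vg pool at each temperature had the highest summed level of the muscle transcripts paired with a name. At 1.5 °C pool 4 had 35690.1 CPM of muscle transcripts, against 9655 to 18245 CPM in the other 3, and the least Vg. At 12 °C pool 1 had 64368 CPM, against 16442 to 37122 CPM in the other 3, and again the least Vg, though by a small margin (17342 against 17385 CPM in pool 3). Of 5 muscle transcripts 0 passed between the temperatures with edgeR and 0 with DESeq2, and 1 had an unadjusted p under 0.05. Mhc1, a myosin heavy chain, was the most abundant. The authors' deposited table called sls, a giant sarcomere protein, lower at -1.11. The part of muscle RNA in the Vg values was not tested.

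In G. lacustris the 12 °C pool 1, with the least Vg of the 8 pools, also had the lowest summed level of the muscle transcripts paired with a name, 469 CPM against 1557 to 2821 CPM in the other 7. Most of that sum was Mhc1, at 306 CPM in this pool, while ACTC1 was highest there of the 8 pools, at 59.7 CPM. It had the highest male and sperm sum, 255 CPM, and the highest germ line sum, 79.2 CPM. Without that pool the log2 fold change of the main Vg transcript was -0.32. Of 4 G. lacustris muscle transcripts tested, 3 passed with edgeR: ACTC1, TNNT2 and TpnC47D, all lower at 1.5 °C, at log2 fold changes from -3.19 to -1.67. Over all transcripts tested in this species, 30.1% were lower. Mhc1, the myosin heavy chain, averaged 1791 ± 213 CPM at 1.5 °C and 1619 ± 1025 CPM at 12 °C (SD, n = 4 each) and did not pass. Amyrel, a digestive amylase relative, averaged 1060.5 ± 164 CPM at 1.5 °C and 732 ± 91.8 CPM at 12 °C, with an edgeR adjusted p of 0.054. It was called higher with DESeq2's size factors and with the authors' size factors, and not with the replicate number as a block. The authors' deposited table called 3 of 8 digestive names, all higher: Amyrel at 1.18, PNLIP at 0.89 and AMY2A at 0.56. Of all names there, 25.1% were higher. Whether tissue shares had a part in the Vg values was not tested.

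**Figure D4:**
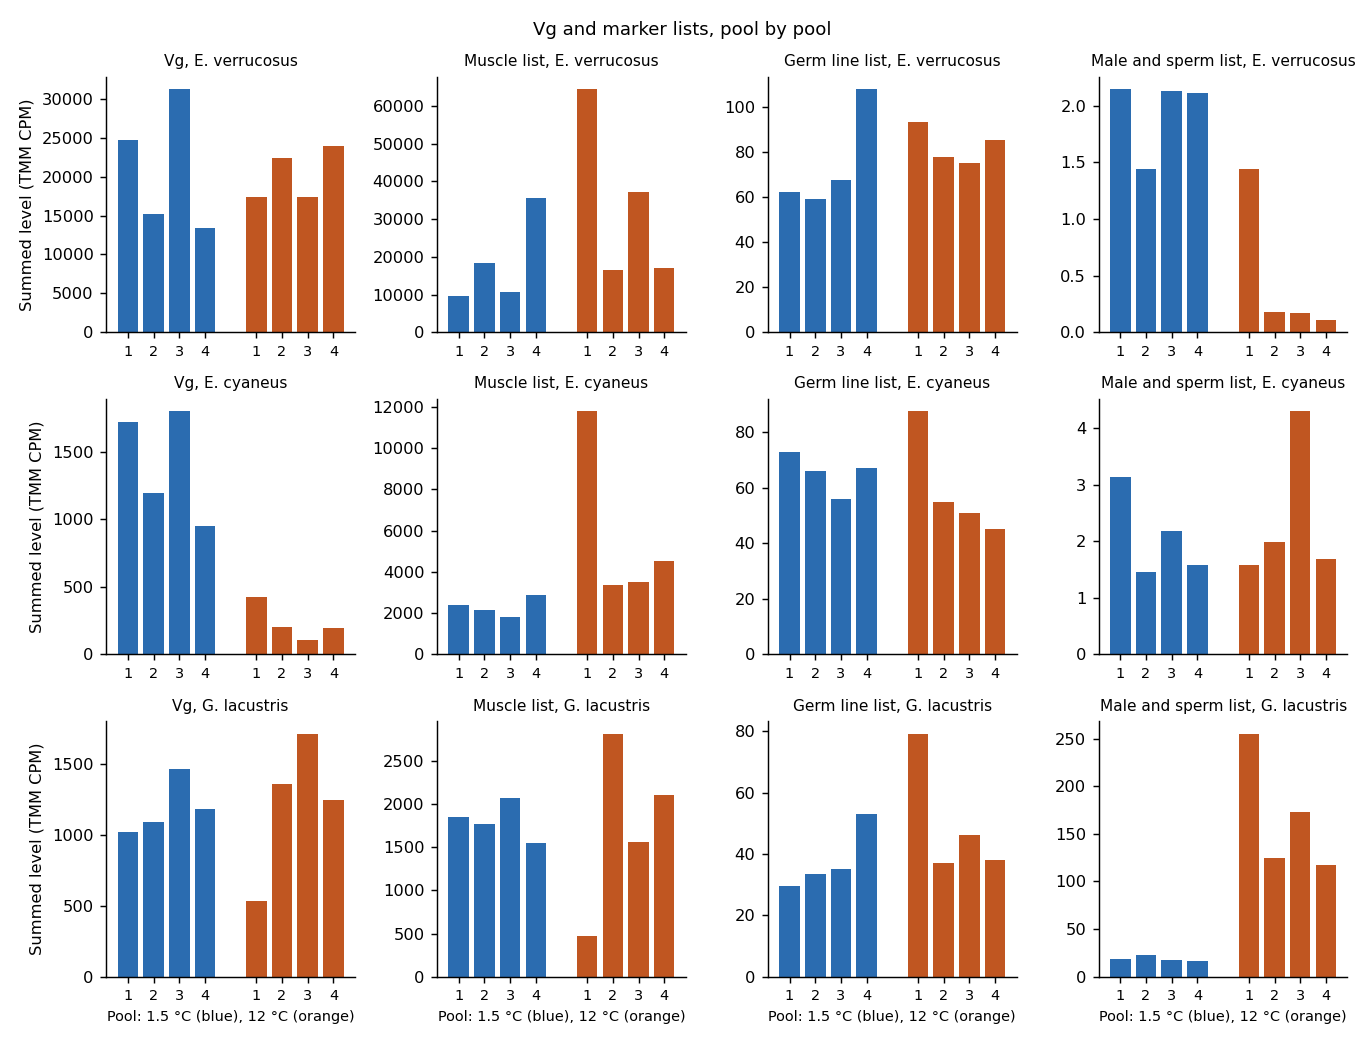
Vg and the summed transcripts of 3 marker lists in each of the 8 pools of a species, in TMM-scaled CPM, with the 1.5 °C pools 1 to 4 in blue on the left and the 12 °C pools 1 to 4 in orange on the right. Each panel has its own axis from 0. The male and sperm list is 118 to 255 CPM at 12 °C in G. lacustris and at most 22.9 CPM in any other group. Its sums cover 25 paired transcripts in G. lacustris, 16 in E. cyaneus and 4 in E. verrucosus, so they are not alike between species.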

How the data were processed

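Whole-body RNA of 24 pools was sequenced by the authors. Per the labels' design text, transcripts were assembled with Trinity, made non-redundant, filtered, kept where they matched metazoan sequences and quantified per library. The submitters' processing notes list Salmon 1.1.0 and DESeq2 1.26.0. The deposited files hold, per transcript, estimated counts and TPM, per the file headers. The authors' 1 table per species holds, per gene name, a log2 fold change with SE, a Wald score, p-values and the normalised count averaged over the 8 libraries (a signal), per the file headers.

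Names were paired with transcripts by number. The authors' mean normalised count of a name was recomputed from the deposited counts, effective lengths and TPM, with size factors solved from their means, and a transcript, or set of transcripts, was accepted where both agreed to a relative difference under 1e-12. This paired 64.4% of E. verrucosus names, 70.4% of E. cyaneus names and 60.5% of G. lacustris names. At means moved by 1e-05, 0 matches were found. The Vg sets of 7 and 3 transcripts, found by searching sums of transcripts, met the same limit.

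Estimated counts were rounded to whole numbers and fitted per species with edgeR 4.0.16 (R 4.3.3): filterByExpr with a minimum count of 10, TMM, glmQLFit, glmQLFTest and Benjamini-Hochberg adjustment over all transcripts tested. The fit was tested on simulated counts with 200 changed transcripts per species. SE are from the same fit. Log2 CPM used a prior count of 2. The p-values set the difference between temperatures against the spread between pools. The labels do not state separate tanks, so that spread may not cover differences between independent exposures. Alternatives were DESeq2's size factors, no filter, DESeq2 1.42.0, the replicate number as a block, leaving out each library, summed transcripts, TPM, a prior count of 0.5 and, added after the data were seen, the authors' size factors.

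The members and lists were chosen with earlier results of these data known. Text names all members, each list transcript past an adjusted p of 0.05 and the 3 most abundant of each list and species, deposited entries past 0.05 where they differ, and the 5 transcripts most and 3 least like Vg. One list gene that the rule names is not reported here. Replicate pools differed beyond counting noise in every pair.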

Additional observations from a re-analysis of the deposited data

Results flagged for a closer look

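Among the members, 2 values lay far from the other 3 pools of their group on the log2 scale, a gap that chance gives in about 1 in 20 groups, and 30 groups were looked at. The 1963-base Vg transcript of G. lacustris was at 24.1 CPM in the 1.5 °C pool 2, against 9.87 to 10.4 CPM in the other 3 pools at that temperature. The G. lacustris MTTP transcript was at 1.72 CPM in the 12 °C pool 1, against 0.566 to 0.665 CPM in the other 3, on 13 estimated counts.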

How the results depend on the processing

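E. cyaneus Vg and E. verrucosus MTTP kept the direction of their fold changes under each alternative run, and left without 1 library ranged from 2.37 to 3.07 and from 0.61 to 0.87. The fold change of the main E. verrucosus Vg transcript, near 0, had no fixed sign: it was -0.01 with the authors' size factors, -0.03 with the replicate block and -0.21 to 0.20 without 1 library. That of G. lacustris ranged from -0.32 to 0.16 without 1 library. The main G. lacustris Vg transcript moved to 0.52 with the authors' size factors. The pooled SD of E. verrucosus Vg moved to 0.76 with the deposited TPM. DESeq2 called 2280 transcripts in E. verrucosus (edgeR 805), 917 for E. cyaneus (edgeR 130) and 16721 for G. lacustris (edgeR 10824). G. lacustris had 17735 without a filter and 18004 with the authors' size factors. Calls on list transcripts numbered 2 in E. verrucosus and 34 in G. lacustris without a filter, and 3 in E. verrucosus and 2 in E. cyaneus with DESeq2. With 1 library left out, E. cyaneus had 41 calls (1.5 °C pool 3) to 197 (12 °C pool 1), with 46 to 73 without the 1.5 °C pools 1, 2 and 4 and the 12 °C pools 2 and 3. Of E. cyaneus calls 50% were higher at 1.5 °C with TMM, 33.0% with the authors' size factors and 38.9% with DESeq2. Same-numbered pools did not deviate together, with r between -0.21 and 0.11. The labels do not say what the numbers stand for, so these r cannot settle whether the pools are paired. With the replicate number as a block there were 170 calls and 0 list calls in E. verrucosus and 44 calls in E. cyaneus, 77.3% of them higher at 1.5 °C. The causes were not tested. The G. lacustris MTTP transcript rests on 1 to 13 counts per library.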
